A study of Mus musculus with 16 samples.

Results

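Female and male murine tracheal epithelial cell cultures (MTECs) were compared at baseline, before any allergen was added, over genes on chromosomes 1 to 19. In this model, epithelial cells taken from mouse tracheas are cultured at an air-liquid interface, where they differentiate into a layer of basal, secretory and ciliated cells. The comparison used 8 of the 16 RNA-seq libraries of the series, 4 labelled F and 4 labelled M, which were all of the naive libraries. Each sex had 2 cultures from wild-type mice (F WT, M WT) and 2 from mice lacking LMAN1 (F KO, M KO), a lectin that carries glycoproteins out of the endoplasmic reticulum, and genotype was a covariate in the test. All mice were of a C57BL/6J background and came from heterozygous breeding, with WT and KO littermates, and the ages of the mice that gave tracheas are not given in the sources used here. The study pooled 3 tracheas for 2 conditions, so a library stands for a pool and not for an animal, and the other 8 libraries came from cultures of the same sexes and genotypes left overnight with house dust mite extract (HDM, 20 µg/ml). The labels call the replicates biological and do not tie a culture to an animal, so a p-value measures the spread between these cultures.

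Sex differences in the expression of autosomal genes have no difference in gene dose behind them, unlike those of X- and Y-linked genes. They are known to arise from sex steroids acting through nuclear receptors and from regulators encoded on the sex chromosomes, and cells in culture can keep them for some time after leaving the animal. In the airway the epithelium secretes defense proteins, moves mucus by ciliary beating and detoxifies inhaled compounds, and its basal cells renew the other cell types.

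The labels held for sex in all 8 libraries. Xist, the RNA that silences an X chromosome in females, lay at 95.2 to 127 CPM (library sizes corrected with edgeR's TMM factors) in F and at 1.14 to 3.66 in M, and the Y-linked genes Ddx3y, Eif2s3y, Kdm5d and Uty lay at or below 1.03 in F and between 29.4 and 59.7 in M. For genotype, Lman1 lay at 109 to 138 CPM in WT libraries, at 12.9 in both F KO libraries and at 14.1 in M KO replicate 1, but at 64.0 in the library labelled M KO replicate 2. Totals ranged from 27035993 to 43442188 counts, and replicates of a group differed by more than sampling noise. The share of counts on mitochondrial genes separated the sexes without overlap, at 0.517 to 0.675% in F and 1.03 to 1.52% in M, and the part of this in the differences given here was not tested.

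Of 14974 autosomal genes tested, 149 differed between F and M naive MTECs at an adjusted p under 0.05 (edgeR quasi-likelihood test, Benjamini-Hochberg over the 15533 genes tested on all chromosomes), which is 0.995% of them. The iron and copper reductase gene Steap4, the circadian output gene Hlf and the aldolase gene Aldoc were among those more than 2 times higher in M, and the cohesin gene Rec8 and the annexin gene Anxa10 were about 2 times higher in F. In all, 110 genes were higher in M (0.735%) and 39 were higher in F (0.26%), although 49.3% of all autosomal genes tested lay higher in M and the median log2 fold change over them, F minus M as everywhere here, was 0.003. Differences were small: the median log2 fold change was -0.55 among genes higher in M and 0.72 among those higher in F, and 29 genes passed an absolute log2 fold change of 1, 18 of them higher in M and 11 higher in F. The 4 F and the 4 M libraries did not overlap for 147 of the 149 genes, the exceptions being Il17rd and Dram1, and this separation was common, with 1732 autosomal genes (11.6%) showing it. Of the 149 genes, 145 were protein coding. Just inside the threshold lay Ctc1 and Rnf13 at adjusted p values of 0.0481 and 0.0483 and just outside lay Gm12940 and Csf1r, both at 0.0501.

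**Figure D1:**
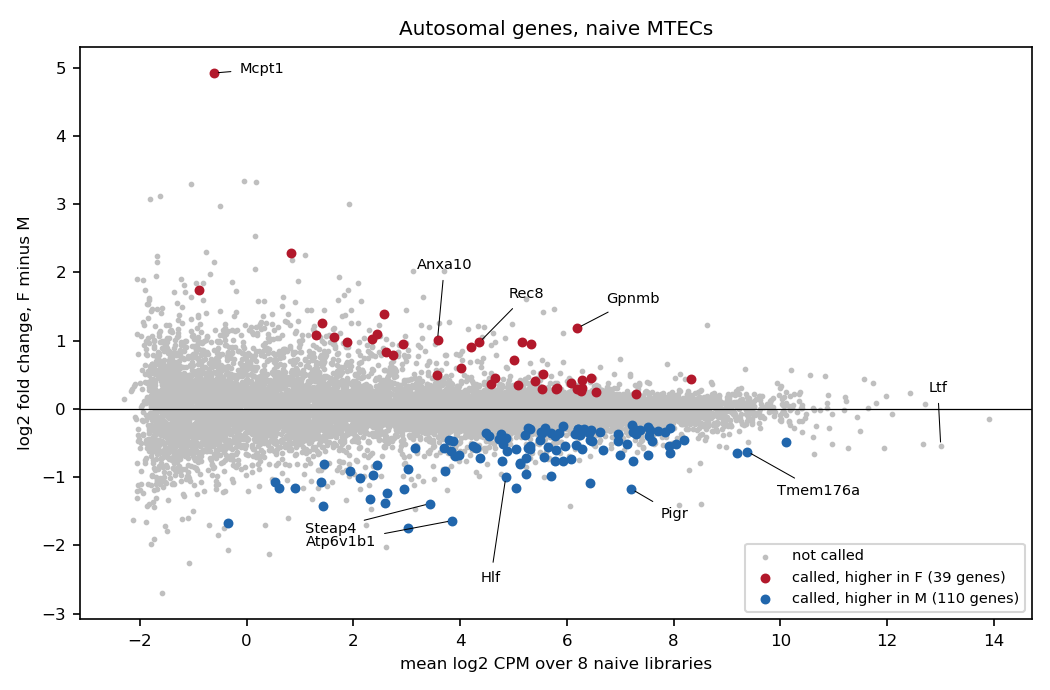
Log2 fold change between F and M naive MTECs (F minus M, vertical axis) against mean log2 CPM over the 8 naive libraries (horizontal axis). Each point is an autosomal gene, with 39 genes called higher in F in red, 110 called higher in M in blue and the rest of the 14974 in gray; most called genes lie within 1 log2 unit of 0.

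The number of genes called depended on each library. Leaving out M WT replicate 1 or replicate 2 gave 78 or 98 genes, and leaving out M KO replicate 1 gave 33. Without F WT replicate 1 or replicate 2 the count was 49 or 22, and without F KO replicate 1 or replicate 2 it was 31 or 14. Leaving out M KO replicate 2, the library with Lman1 between the WT and the other KO levels, raised the count to 292, of which 131 were among the 149. With library size as the only scaling, 96 genes were called, 49 higher in M and 47 higher in F, so the excess of genes higher in M among the calls was seen with TMM and with upper-quartile scaling and not with this scaling. A fit to autosomal genes alone gave 61 genes, all among the 149.

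A core of 13 genes was called under each of 17 other settings, including the removal of any 1 library. In this core 11 were higher in M, namely Steap4, Hlf, Ccdc3, Gda, Vwa1, Aldoc, Cmah, Aox1, Tmem176a, Parm1 and Ndrg1, and Anxa10 and Rec8 were higher in F. Of these, 3 have upstream sequence in the RefSeq promoter table (GRCm38.p6) that overlaps no annotated exon, and the 250 bases before their start sites are shown because these genes differ in direction and in promoter type. Capitals mark 3 motifs searched on either strand. GGGCGG is the GC box. The cAMP response element is TGACGTCA, and the motif TATAAA is the core promoter element bound by the TATA-binding protein.
Hlf, chr11:90390918-90391167, minus strand: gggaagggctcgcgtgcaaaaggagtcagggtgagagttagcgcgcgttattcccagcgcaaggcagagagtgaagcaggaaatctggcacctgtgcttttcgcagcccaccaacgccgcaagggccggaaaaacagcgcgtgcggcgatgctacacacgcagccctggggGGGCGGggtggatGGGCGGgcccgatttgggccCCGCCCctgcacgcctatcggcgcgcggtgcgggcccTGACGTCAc
Cmah, chr13:24327154-24327403, plus strand: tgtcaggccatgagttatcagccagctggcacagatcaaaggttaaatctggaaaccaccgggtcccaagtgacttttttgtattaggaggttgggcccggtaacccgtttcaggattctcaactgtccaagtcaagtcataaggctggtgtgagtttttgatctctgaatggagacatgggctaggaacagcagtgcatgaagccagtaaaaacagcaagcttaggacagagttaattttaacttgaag
Anxa10, chr8:62123194-62123443, minus strand: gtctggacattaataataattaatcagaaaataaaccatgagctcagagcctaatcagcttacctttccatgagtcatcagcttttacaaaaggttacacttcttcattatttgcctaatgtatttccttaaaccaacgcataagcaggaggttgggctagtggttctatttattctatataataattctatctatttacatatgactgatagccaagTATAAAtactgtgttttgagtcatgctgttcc
The Hlf window is rich in G and C, with 3 GC boxes and a cAMP response element next to the start, the Anxa10 window is rich in A and T and holds TATAAA, and none of the motifs searched was found in the Cmah window. Of 25748 autosomal promoter windows of this length, 33.3% held a GC box, 13% held TATAAA and 1.66% held the cAMP response element. The E-box CACGTG and the D-box TTANGTAA, which bind circadian regulators, and the motif AGAACA, a half-site of androgen and glucocorticoid receptors, were in none of the 3 windows and in 6.04%, 2.02% and 16.1% of all windows. The motifs were chosen with the sequences in view and are a description of the letters only.

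Steap4, which reduces iron and copper at the cell surface and is known as an androgen-responsive gene, had among the smallest p values. Its levels were 7.57 and 5.81 CPM in F WT, 5.32 and 5.12 in F KO, 15.8 and 17.4 in M WT and 13.9 and 15.0 in M KO. Every M library lay above every F library, and the gene was 2.62-fold higher in M (log2 fold change -1.39 ± 0.11 SE, adjusted p = 0.00102 by edgeR).

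Hlf encodes a PAR bZIP transcription factor that carries circadian timing to detoxification genes. It lay at 20.5 and 17.8 CPM in F WT, 20.3 and 18.2 in F KO, 39.8 and 40.0 in M WT and 40.0 and 34.6 in M KO. The groups were far apart relative to their spread, with means of 19.2 ± 1.39 (SD, n = 4) in F and 38.6 ± 2.70 in M, a log2 fold change of -1.004 ± 0.08 (SE, adjusted p = 0.00102 by edgeR). Hlf was also the only autosomal gene called within WT alone.

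Aldoc, a glycolytic aldolase, lay at 67.8 and 56.2 CPM in F WT, 54.2 and 45.0 in F KO, 114 and 134 in M WT and 116 and 107 in M KO. It was 2.12-fold higher in M (log2 fold change -1.08 ± 0.09 SE, adjusted p = 0.00152). Ccdc3, which encodes a secreted protein, had levels of 22.3 and 18.5 CPM in F WT, 21.5 and 19.4 in F KO, 37.9 and 46.6 in M WT and 50.3 and 47.6 in M KO. The lowest M library was above the highest F library for both genes.

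Cmah makes N-glycolylneuraminic acid, a sialic acid of mouse glycoproteins. Its levels were 3.31 and 3.35 CPM in F WT, 3.54 and 3.09 in F KO, 9.88 and 8.07 in M WT and 7.47 and 9.31 in M KO. The F libraries were nearly level and all M libraries lay at more than 2 times the F values (log2 fold change -1.39 ± 0.13 SE, adjusted p = 0.00253 by edgeR).

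Other core genes higher in M differed by less. Gda, guanine deaminase, lay at 38.6 to 43.1 CPM in F and 63.0 to 72.1 in M, and Vwa1, a matrix protein, at 35.1 to 36.9 in F and 53.9 to 62.5 in M. Parm1, a mucin-like membrane protein, lay at 18.2 to 23.7 CPM in F and 33.4 to 35.6 in M. None of these ranges overlapped between the sexes. Aox1, an aldehyde oxidase of xenobiotic metabolism, lay at 56.4 to 62.7 CPM in F and 80.9 to 94.3 in M. Ndrg1, a gene induced by hypoxia and by androgens, lay at 41.5 to 48.9 CPM in F and 63.3 to 70.3 in M, with a log2 fold change of -0.61 ± 0.07 (SE, adjusted p = 0.00523 by edgeR).

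Tmem176a and Tmem176b, which encode related membrane proteins, lie next to each other on chromosome 6 and overlap by 577 bases on opposite strands. Tmem176a lay at 505 to 557 CPM in F and 753 to 855 in M, and Tmem176b at 887 to 988 in F and 1246 to 1349 in M. Both were higher in M, with log2 fold changes of -0.63 and -0.48, and both passed the test (edgeR adjusted p = 0.00519 and 0.018). Tmem176a and Tmem176b kept their calls in 17 and 13 of the 17 other settings. Whether the counting used strand is not given in the sources used here, so reads from the shared stretch cannot be told apart between the pair.

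Rec8, a cohesin subunit best known from meiosis, lay at 23.4 and 25.2 CPM in F WT, 26.6 and 33.7 in F KO, 12.4 and 13.7 in M WT and 15.2 and 13.8 in M KO. The sexes did not overlap, and the log2 fold change was 0.98 ± 0.10 (SE, adjusted p = 0.00391 by edgeR). Anxa10, a calcium- and phospholipid-binding annexin of gastric and other epithelia, lay at 14.3 and 17.4 CPM in F WT, 17.3 and 14.3 in F KO, 7.69 and 8.65 in M WT and 7.50 and 7.63 in M KO. Its log2 fold change was 1.01 ± 0.11 (SE, adjusted p = 0.00519 by edgeR), and again no M library reached an F library.

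The 24 genes with the largest differences were chosen among called genes whose F and M libraries did not overlap, so their calls and their separation follow from that choice. Of these, Anxa10, Rec8, Steap4, Cmah, Ccdc3 and Aldoc belong to the core described above. The others lost their calls in some of the 17 other settings, in 2 for Stx1a, 4 for Ms4a7, Atp6v1c2 and Nlrp10, 5 for Scara5, Ctss and Atp6v1b1, 6 for Fxyd5 and Mpeg1, 7 for Dock2, Gpnmb, Fmnl1 and Abi3bp, 8 for Defb1, 9 for Pigr and 10 for Celf5, Kcnh1 and Rhbdl3.

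Pigr, Defb1 and Nlrp10, all higher in M, encode proteins of host defense. They were put together after their values were seen, and other genes of immune function, such as Mpeg1 and Ctss below, were higher in F. Pigr, the receptor that carries IgA across epithelium, lay at 73.1 to 117 CPM in F and 137 to 267 in M (log2 fold change -1.17 ± 0.21 SE, edgeR adjusted p = 0.0441). Defb1, a beta-defensin, lay at 1.19 to 2.09 CPM in F and 2.63 to 4.49 in M, and Nlrp10, a member of the NOD-like receptor family, at 3.25 to 4.37 in F and 7.28 to 11.1 in M. From the lists of genes by function, Tlr4, the endotoxin receptor, was higher in M by a smaller amount, at 23.4 to 26.5 CPM in F and 29.7 to 37.3 in M. The lactoferrin gene Ltf did not pass the test (adjusted p = 0.123 by edgeR), although its F libraries at 5531 to 8033 CPM lay below its M libraries at 8100 to 11922. Tlr4 lost its call in 9 of the 17 settings.

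Atp6v1b1 and Atp6v1c2 encode subunits of the proton-pumping V-ATPase, and both were higher in M. Atp6v1b1 lay at 9.63 and 6.96 CPM in F WT, 7.68 and 3.91 in F KO, 27.1 and 15.4 in M WT and 21.3 and 22.7 in M KO, a 3.12-fold difference (log2 fold change -1.64 ± 0.26 SE, edgeR adjusted p = 0.0328). Atp6v1c2 lay at 2.06 to 3.89 CPM in F and 6.47 to 7.58 in M. The V-ATPase is prominent in ionocytes. The summed level of 5 ionocyte markers was 3.57 to 5.32 CPM in F and 3.86 to 4.33 in M. None of the 5 was called, 3 lay higher in F and 2 higher in M, and the list median was 0.25. Log2 fold changes were -0.20 ± 0.37 (SE) for Foxi1, the factor that specifies ionocytes, and -0.43 ± 0.31 for Ascl3. They were 0.67 ± 0.28 for Stap1 and 0.65 ± 0.31 for Atp6v0d2, and the other marker, Cftr, also lay higher in F. Atp6v0d2 also encodes a V-ATPase subunit and lay higher in F, and other subunit genes are not given here. Foxi1 lay at or below 0.932 CPM in every library, and the part of ionocytes in the differences of Atp6v1b1 and Atp6v1c2 was not tested.

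The other genes with large differences higher in M were Abi3bp, an extracellular matrix protein, at 2.87 to 4.70 CPM in F and 7.47 to 17.7 in M, Kcnh1, a potassium channel, at 3.75 to 6.39 and 8.12 to 13.5, and Rhbdl3, a rhomboid-like protein, at 1.42 to 1.96 and 2.62 to 4.37. Abi3bp had a log2 fold change of -1.74 ± 0.29 (SE, edgeR adjusted p = 0.0409). Its spread was wide in M, at 17.7 and 8.96 CPM in M WT and 15.9 and 7.47 in M KO.

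**Figure D2:**
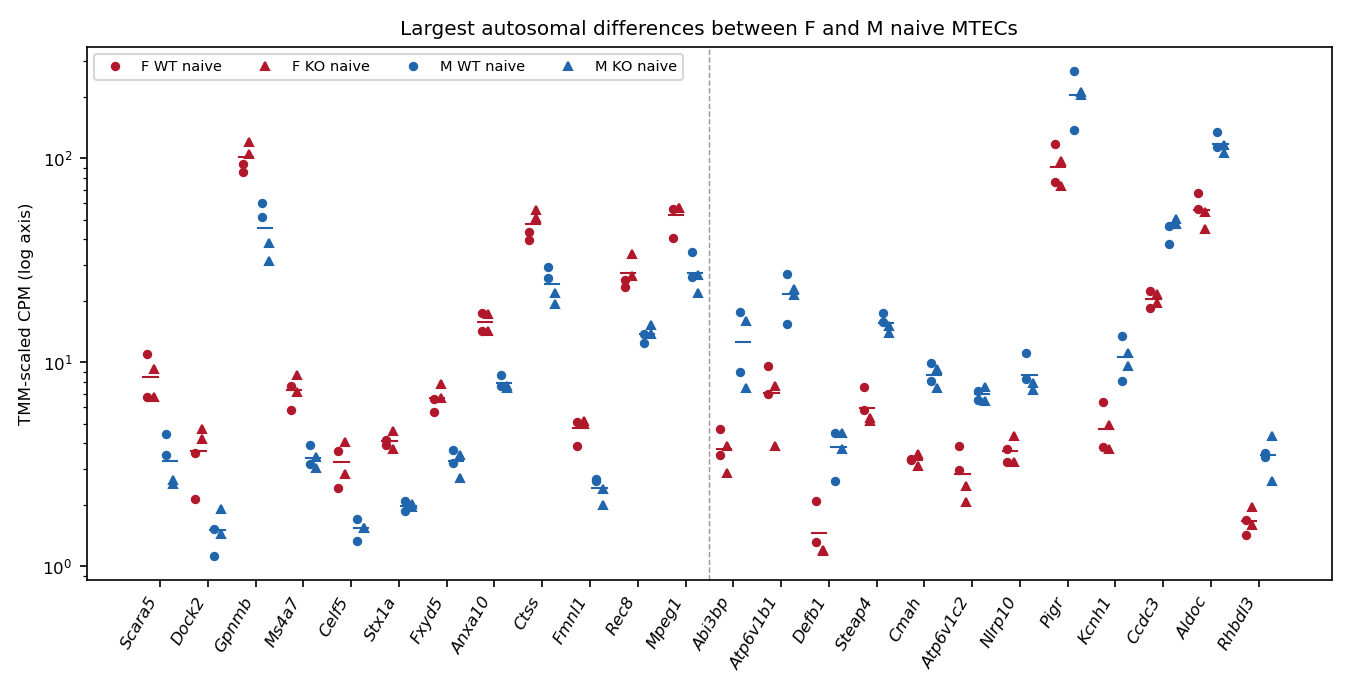
TMM-scaled CPM (vertical axis, log scale) of the 12 genes with the largest difference higher in F, left of the dashed line, and the 12 higher in M, right of it. Each symbol is a naive library, circles WT and triangles KO, red F and blue M, with a bar at the mean of 4 libraries; for Steap4 the F libraries sit between 5.12 and 7.57 and the M libraries between 13.9 and 17.4.

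Of the genes higher in F, Gpnmb, Ctss, Mpeg1, Ms4a7, Dock2 and Fmnl1 are known from macrophages and other leukocytes and were put together after their values were seen. Gpnmb, a glycoprotein of macrophages and pigment cells, lay at 94.1 and 85.4 CPM in F WT, 121 and 105 in F KO, 51.4 and 60.6 in M WT and 31.2 and 38.5 in M KO. Ctss, the lysosomal protease cathepsin S, lay at 39.7 to 55.7 CPM in F and 19.3 to 29.2 in M, and Mpeg1, the perforin of macrophages, at 40.6 to 57.3 in F and 21.7 to 34.7 in M. Their adjusted p values lay close to the threshold (edgeR, 0.0403, 0.0307 and 0.0418). At lower levels, Ms4a7, a macrophage membrane protein, lay at 5.81 to 8.63 CPM in F and 3.03 to 3.93 in M, Dock2, a Rac activator of leukocytes, at 2.15 to 4.72 and 1.13 to 1.90, and Fmnl1, a formin of leukocytes, at 3.89 to 5.15 and 2.00 to 2.67. Not all called genes known from leukocytes were higher in F. Arhgdib and Arhgap25 were higher in M, with log2 fold changes of -0.72 and -0.81 (edgeR adjusted p = 0.0154 and 0.0444). They kept their calls in 13 and 4 of the 17 other settings.

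Leukocyte markers also lay higher in F. Of 7 markers in the list 5 were tested, all 5 lay higher in F and none was called, with a median log2 fold change of 0.74 against 0.003 over all autosomal genes. Their summed level was 242 to 295 CPM in F and 184 to 246 in M, and the lymphocyte genes Cd3e and Cd79a were at the floor of 3 counts or fewer in every library. Csf1r, the receptor that macrophages depend on, lay at 27.3 and 21.9 CPM in F WT, 31.7 and 29.9 in F KO, 13.8 and 18.7 in M WT and 10.5 and 14.0 in M KO, just outside the threshold. Ptprc, the pan-leukocyte antigen CD45, lay at 4.25 to 6.47 CPM in F and 2.33 to 4.34 in M and overlapped. The part that leukocyte RNA has in the differences of Gpnmb, Ctss, Mpeg1, Ms4a7, Dock2 and Fmnl1 was not tested, and in such bulk samples fewer cells of a type and less RNA per cell cannot be told apart.

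The remaining genes with large differences higher in F had other roles. Scara5, a scavenger receptor that takes up ferritin, lay at 6.76 to 10.9 CPM in F and 2.54 to 4.46 in M (log2 fold change 1.39 ± 0.20 SE, edgeR adjusted p = 0.0254). Stx1a, a syntaxin of membrane fusion, lay at 3.74 to 4.59 CPM in F and 1.86 to 2.09 in M, Celf5, an RNA-binding protein, at 2.43 to 4.06 and 1.33 to 1.71, and Fxyd5, a regulator of the sodium pump, at 5.73 to 7.82 and 2.72 to 3.73. Of the genes with a mean log2 CPM under 1, which the rule for named genes left out, Mcpt1, a mast cell protease, had the largest log2 fold change of all 149 genes at 4.92, but its M libraries held 0 to 0.103 CPM and its F libraries 0.404 to 2.44. Enpp2, which makes lysophosphatidic acid, lay at 2.35 to 3.45 CPM in F and 0.193 to 0.894 in M. Mcpt1 and Enpp2 were picked out after their values were seen.

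Marker genes of other cell types were not called apart from Ngfr, a receptor of basal cells, which lay at 92.7 to 113 CPM in F and 121 to 161 in M (log2 fold change -0.47 ± 0.09 SE, edgeR adjusted p = 0.0466) and lost its call in 9 of the 17 settings. The 8 basal cell markers together summed to 10700 to 12300 CPM in F and 8490 to 10600 in M, but 4 of the 8 lay higher in F and 4 higher in M, with a list median of -0.07. The keratin genes Krt5, Krt14 and Krt15 had log2 fold changes of 0.18, 0.48 and 0.43, and Trp63, the factor that maintains basal cells, had -0.26 ± 0.08 (SE) without a call. Of 7 club cell markers 6 lay higher in M, with a list median of -0.45 and sums of 15500 to 21600 CPM in F and 18600 to 26200 in M. The exception was the secretoglobin gene Scgb1a1, which lay higher in every F library at a log2 fold change of 1.45 ± 0.35 (SE, edgeR adjusted p = 0.0846). All 6 tested goblet cell markers lay higher in M, with a median of -0.30 and sums of 121 to 172 CPM in F and 151 to 216 in M, and the mucin gene Muc5ac lay higher in every M library at -0.78 ± 0.21 (SE, edgeR adjusted p = 0.11). None of the club or goblet cell markers was called. The 8 ciliated cell markers summed to 116 to 160 CPM in F and 78.9 to 186 in M. All 7 tested squamous and hillock cell markers lay higher in F and none was called, with a median of 0.38 and sums of 1440 to 1980 against 800 to 1440. Fibroblast markers differed more between libraries than between sexes, at 26.9 to 537 CPM in F and 3.96 to 158 in M, with none of 7 called. The part of these cell types in the sex differences was not tested.

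**Figure D3:**
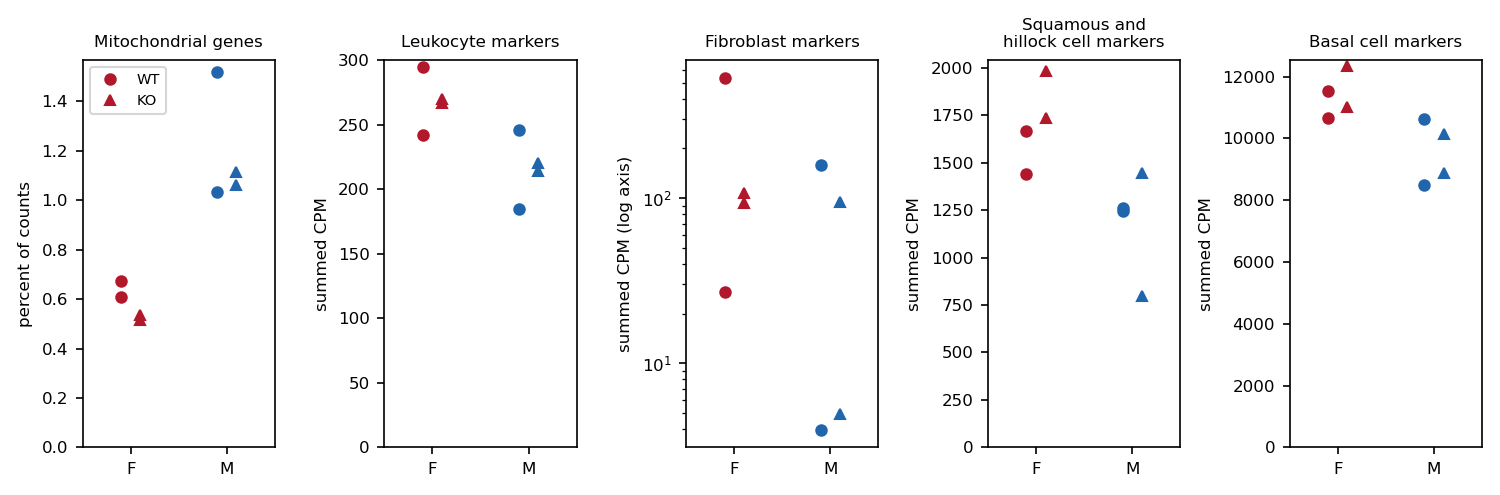
Percent of counts on mitochondrial genes (left) and summed CPM of leukocyte, fibroblast (log axis), squamous and hillock cell, and basal cell markers in each naive library, by sex (horizontal axis). Circles are WT and triangles KO libraries; mitochondrial shares of F (0.517 to 0.675%) and M (1.03 to 1.52%) do not overlap, whereas fibroblast sums spread from 3.96 to 537.

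Lists of genes by function were read against the 0.995% of all autosomal genes that were called. Of 13 androgen response genes tested, 12 lay higher in M and 2 were called, Steap4 and Ndrg1, with a list median of -0.21. The well known androgen target Fkbp5 showed a log2 fold change of 0.003 ± 0.24 (SE), and Tmprss2 one of -0.21 ± 0.07 with an adjusted p of 0.178 by edgeR. Of 12 estrogen response genes tested none was called, and of 15 tested genes for sex steroid receptors and converting enzymes 1 was. This gene was Akr1c18, a progesterone-inactivating reductase, at 98.5 to 104 CPM in F and 64.8 to 82.6 in M (log2 fold change 0.45 ± 0.08 SE, edgeR adjusted p = 0.0426), and it lost its call in 8 of the 17 settings. Its relative Akr1c14 lay at 2.70 to 3.23 and 3.53 to 4.76 without a call. Akr1c genes are close paralogs, and how shared reads were counted is not given in the sources used here. Esr1, the estrogen receptor, had a log2 fold change of -0.27 ± 0.23 (SE).

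Of 18 circadian genes tested, 15 lay higher in M and 2 were called, Hlf and Per2, with a list median of -0.23. Per2, a repressor in the clock loop, lay at 29.9 to 35.2 CPM in F and 38.3 to 51.0 in M (log2 fold change -0.54 ± 0.10 SE, edgeR adjusted p = 0.0453), and lost its call in 9 of the 17 settings. In all, 8 of the 18 had an unadjusted p under 0.05 by edgeR, beside 18.4% of all autosomal genes tested. Among the 18, 5 separated the sexes with M higher, beside 911 of all 14974 autosomal genes. These 5 included Hlf, Per2, the repressor Bhlhe40 and the activator Arntl. Bhlhe40 and Arntl had log2 fold changes of -0.31 ± 0.09 and -0.20 ± 0.08 (SE) without a call. Tef and Dbp, the close relatives of Hlf, had -0.24 ± 0.09 and -0.10 ± 0.22, and Nr1d1, a repressor, had 0.20 ± 0.20. The hour at which each culture was harvested is not given in the sources used here.

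All 17 genes of cholesterol and fatty acid synthesis lay higher in M on average, and none was called, with a list median of -0.25. The M libraries were not alike: the 17 genes summed to 6008 and 3680 CPM in M WT replicates 1 and 2. The sums were 5293 and 3559 in M KO replicates 1 and 2 and 3142 to 3609 in F. Insig1, the sterol-sensing regulator with the smallest p of the 17, lay at 62.6 to 68.4 CPM in F and 84.5 to 133 in M (edgeR adjusted p = 0.0703). Of 21 inflammatory and NF-κB target genes 18 lay higher in M and none was called, with a median of -0.22, and Nfkbia, the inhibitor of NF-κB, lay at 47.1 to 50.5 CPM in F and 55.5 to 74.6 in M (edgeR adjusted p = 0.0727). Xenobiotic metabolism had 1 called gene of 19, the flavin monooxygenase Fmo2, at 372 to 525 CPM in F and 639 to 837 in M. Its log2 fold change was -0.64 ± 0.12 (SE, edgeR adjusted p = 0.0441), and it lost its call in 9 of the 17 settings.

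In the other lists the tested members were mostly below the threshold. Tlr4 was the 1 called gene of 8 epithelial alarmins and receptors and Steap4 the 1 of 15 genes of iron and metal handling. None was called of 20 interferon-stimulated genes, 15 antigen presentation genes, 17 immediate early genes, 18 cell cycle genes, 17 extracellular matrix genes, 14 genes of hypoxia and glycolysis, 16 genes of ER stress and folding and 6 autosomal paralogs of sex-linked genes. List medians in this set lay between -0.20 for hypoxia and glycolysis and 0.58 for extracellular matrix. In the last list Mmp9, a collagenase of the basement membrane, had a log2 fold change of 3.32 ± 1.02 (SE) but overlapped, at 0.147 to 3.59 CPM in F and 0.0276 to 0.547 in M. H2-Eb1, a class II antigen-presenting molecule, lay at 4.92 to 7.84 CPM in F and 2.43 to 3.83 in M (edgeR adjusted p = 0.0581), Egln3, an oxygen-sensing hydroxylase, at 32.7 to 41.9 and 43.1 to 72.2, and Trib3, a stress-induced pseudokinase, at 13.9 to 19.3 and 7.65 to 12.6. These 3 genes separated the sexes without passing the test. Gbp2, Fosb and Utp14b had the smallest p values among the interferon-stimulated genes, immediate early genes and paralogs of sex-linked genes, with log2 fold changes of -0.32, -0.46 and -0.33, overlapping libraries and no call.

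Both long noncoding RNAs of nuclear bodies on chromosome 19 were higher in M. Malat1 lay at 130 to 155 CPM in F and 201 to 239 in M, and its neighbor Neat1 at 151 to 174 in F and 206 to 249 in M, with log2 fold changes of -0.67 ± 0.08 and -0.47 ± 0.07 (SE, edgeR adjusted p = 0.00915 and 0.0236). Malat1 and Neat1 kept their calls in 15 and 12 of the 17 other settings. Under HDM their log2 fold changes were 0.64 and -0.40 (edgeR adjusted p = 0.105 and 0.0429). Frmd8, 4224 bases from Neat1, was called higher in F at 0.27 (edgeR adjusted p = 0.0441), and in 7 of the 17 settings. The 149 genes lay on all 19 autosomes, from 1 of 392 genes tested on chromosome 18 to 17 of 1276 on chromosome 11.

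The difference between sexes was next taken within each genotype, in a model of the 4 group means. Since the 149 genes were called on the average of both genotypes in these libraries, agreement in sign between WT and KO follows largely from that choice and is not counted as a result. With 2 libraries on each side, 1 autosomal gene was called within WT (0.00668%) and 8 within KO (0.0534%), 3 higher in F and 5 higher in M. Hlf was called in both genotypes, at -1.06 ± 0.11 on the log2 scale in WT and -0.95 ± 0.11 in KO (SE, edgeR adjusted p = 0.0475 and 0.046). Gpnmb was called in KO at a log2 fold change of 1.69 ± 0.13 and had 0.68 ± 0.13 in WT, and Ctss was called in KO at 1.37 ± 0.11 and had 0.60 ± 0.11 in WT. Cd84, a leukocyte surface receptor, was called in KO at 1.77 ± 0.19 and had 0.59 ± 0.19 in WT. The other genes called in KO were Malat1, Ccdc3, Steap4 and Aldoc. The KO count fell to 0 without either F KO library, to 4 without M KO replicate 1 or either F WT library and to 5 without M KO replicate 2. The WT count was 2 without M WT replicate 1 or M KO replicate 2 and 0 without M KO replicate 1 or any 1 of the F libraries. The interaction of sex and genotype was called for 0 autosomal genes (0%) by edgeR and for 1 gene by DESeq2. By edgeR, 213 of 14974 genes had an unadjusted p under 0.05, a share below the 0.05 that would pass with no interaction at all. The interaction was 1.01 ± 0.18 for Gpnmb and 0.78 ± 0.15 for Ctss on the log2 scale (SE, edgeR unadjusted p = 0.000746 and 0.00104), and neither was called. With 2 libraries on each side, a difference of the sex effect between genotypes was not shown for Gpnmb, Ctss or Cd84. Its absence was not shown either.

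The same contrast in the 8 HDM libraries shares no library with the naive one, but naive and HDM cultures may come from the same pools of tracheas. There 4655 of 14836 autosomal genes were called (31.4%), 2326 higher in F (15.7%) and 2329 higher in M (15.7%). Of the 149 genes 148 were tested under HDM, 118 kept their sign, 83 were called with the same sign and 10 with the opposite sign. By direction, 20 of the 39 genes higher in F and 63 of the 110 higher in M were called with the same sign.

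Steap4, Hlf, Aldoc and Pigr were higher in M under both treatments. Under HDM, Steap4 lay at 3.52 to 5.41 CPM in F and 21.999 to 37.0 in M, Hlf at 8.65 to 23.0 in F and 31.2 to 40.1 in M, and Aldoc at 7.80 to 15.6 in F and 66.1 to 116 in M. Pigr lay at 5.97 to 17.2 CPM in F and 175 to 297 in M, a log2 fold change of -4.41 beside -1.17 in naive cultures. Atp6v1b1 was at 0.124 to 0.560 CPM in F and 10.5 to 15.6 in M, a log2 fold change of -5.16 beside -1.64. Some cell type markers were also called higher in M under HDM. Of 5 ionocyte markers 2 were, with a list median of -0.29, and these, Foxi1 and Ascl3, had log2 fold changes of -6.44 and -3.70 (edgeR adjusted p = 0.00473 and 0.00603), and 6 of 7 club and 5 of 6 goblet cell markers were called higher in M, with list medians of -4.09 and -3.46. Their part in the differences of Pigr, Atp6v1b1 and the other genes under HDM was not tested. Among genes higher in F, Rec8 lay at 21.3 to 50.1 CPM in F and 11.7 to 14.6 in M, and Celf5 at 5.18 to 8.51 and 1.33 to 2.70. The difference between the treatments was not tested for any of these genes.

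Anxa10 and Akr1c18 were higher in F in naive cultures and lower in F under HDM. Akr1c18 lay at 3.47 and 5.83 CPM in F WT, 29.2 and 23.0 in F KO, 68.0 and 57.4 in M WT and 65.1 and 73.4 in M KO with HDM, a log2 fold change of -2.50 (edgeR adjusted p = 0.0071) beside 0.45 in naive cultures. Anxa10 lay at 0.165 and 0.188 CPM in F WT, 5.52 and 2.70 in F KO, 6.29 and 5.52 in M WT and 8.47 and 8.31 in M KO with HDM (log2 fold change -2.49, edgeR adjusted p = 0.0385). The F libraries were separate from the M libraries for Akr1c18 and met them for Anxa10. The other genes called with the opposite sign were Wnk4, higher in F at baseline, and Cadm1, Kitl, Il17rd, Lrrc8c, Man2a1, Endod1 and Itgav, higher in M at baseline. The leukocyte-typical genes Gpnmb, Ctss, Mpeg1, Ms4a7 and Dock2 had log2 fold changes between -0.15 and 0.20 under HDM and no call there, whereas Fmnl1 had 1.27 (edgeR adjusted p = 0.00547). Of the 5 leukocyte markers tested under HDM, 2 were called higher in M and 0 higher in F, with a list median of 0.18.

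**Figure D4:**
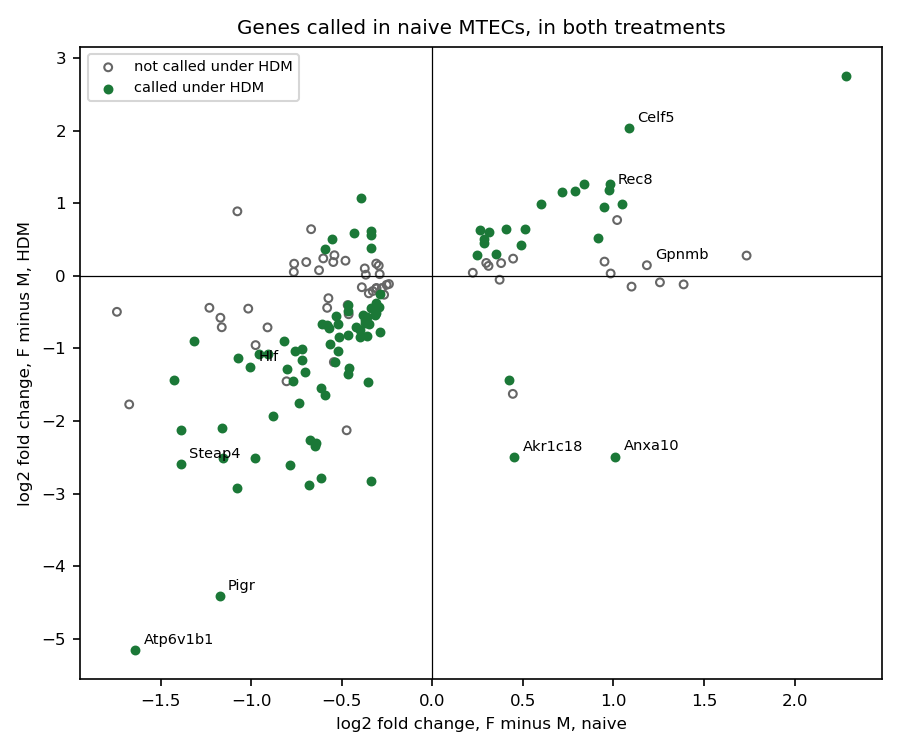
Log2 fold change between F and M (F minus M) in naive MTECs (horizontal axis) and in HDM-treated MTECs (vertical axis) for the 148 genes called in naive MTECs and tested in both. Filled points were also called under HDM (93 genes) and open points were not; Akr1c18 and Anxa10 lie at lower right, with opposite signs in the 2 treatments.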

How the data were processed

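RNA from 16 MTEC cultures was sequenced after mRNA enrichment and random priming. Per the submitters' processing notes the tools were Trimmomatic 0.36, STAR 2.5.2b, featureCounts (Subread 1.5.2) and DESeq2, with build GRCm38. The values deposited by the authors are raw counts, 1 whole number for each Ensembl gene and library, with no scaling applied. Strand setting and annotation release are not given in the sources used here. Of 49315 identifiers, 49056 matched GENCODE M21 (GRCm38), and the 259 others carried 0.0106% of counts.

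The 8 naive libraries were grouped by their labels and fitted in edgeR 4.0.16 (R 4.3.3) with filterByExpr, TMM scaling and a quasi-likelihood model of genotype and sex. P-values were two-sided and adjusted over all genes tested (Benjamini-Hochberg), and autosomal genes were called at an adjusted p under 0.05. Sex within genotype and its interaction came from the 4 group means, and the 8 HDM libraries were fitted apart. CPM used TMM-scaled library sizes. SEs are those implied by the F statistic.

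Named genes were the 12 with the largest difference in each direction among called genes that averaged 1 or more on the log2 CPM scale and whose F and M libraries did not overlap, Steap4, each called list member, and the member of each functional list with the smallest unadjusted p if under 0.05. Genes outside this rule are those of the core of 13 and those singled out by marker, neighbor or HDM sign. The members and lists were chosen with earlier results of these data known. Alternatives were DESeq2 1.42.0, other scalings and filters, other fits, replicate blocks and leaving out each library. Sequences came from RefSeq (GRCm38.p6), where 113 of 149 called genes matched. Figures were drawn with matplotlib 3.10.9.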

Additional observations from a re-analysis of the deposited data

Results flagged for a closer look

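In 110 groups of 4 naive libraries checked, 8 had a library apart from the other 3, where chance flags about 5% of groups. Among F libraries, F WT replicate 2 was lowest for Fmnl1 at 3.89 CPM (others 5.00 to 5.15), for Mpeg1 at 40.6 CPM (others 56.5 to 57.3) and for the sum of ionocyte markers at 3.57 CPM, and highest for the sum of fibroblast markers at 537 CPM. F WT replicate 1 was highest for Defb1 at 2.09 CPM, against 1.19 to 1.31 in the others. Among M libraries, M WT replicate 2 was highest for Anxa10 at 8.65 CPM and for Mmp9 at 0.547 CPM. The library labelled M KO replicate 2, with Lman1 between the WT and the other KO levels, was lowest for Hlf at 34.6 CPM, against 39.8 to 40.0 in the others.

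Akr1c18 was higher in all F than in all M libraries when naive and lower in all F libraries with HDM, with a log2 fold change of -2.50 there. The difference between the treatments was not tested.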

How the results depend on the processing

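The count of autosomal genes called between F and M naive MTECs (149) was 881 with DESeq2 (147 of the 149 shared), 96 with library size only, 1551 with no filter on low counts (all 149 shared), 61 when only autosomal genes were fitted (all 61 shared), 342 with all 16 libraries in 1 fit (127 shared) and 29 when the log2 fold change also had to reach 1 in size, and 14 to 292 when a library was left out. It was 137 with upper-quartile scaling and 173 with at least 10 counts in every library. Within WT (1 gene) the count was 86 with DESeq2, 2 with upper-quartile scaling, 0 with library size only, at least 10 counts or only autosomal genes, 540 with no filter, 8 with all 16 libraries and 0 to 2 without a library. Within KO (8 genes) it was 158 with DESeq2, 746 with no filter, 3 with only autosomal genes, 19 with all 16 libraries and 0 to 11 without a library. The interaction (0 genes) gave 1 with DESeq2, 56 with no filter and 0 to 1 without a library. Under HDM (4655 genes) 1683 genes were left when the log2 fold change had to reach 1 in size, and 3257 to 4368 were called without a library. Of the 41 named genes, none changed sign under any of these settings. This follows largely from their choice by calls, separation or small p values in the same libraries and is not counted as a result. The cause of the changes in the number of calls was not tested.

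The labels do not say whether cultures of the same replicate number belong together, and the main fit used no block. In naive cultures, replicate differences over all genes tested correlated at 0.517 between M WT and M KO and at 0.252 between F WT and F KO. Across the sexes these correlations ran from -0.292 to 0.205, and under HDM all ran from -0.274 to 0.173. Replicate number may thus pair naive cultures within a sex, at least in M, which was not tested. The main fit took the 4 libraries of a sex as independent, which paired cultures would not be. Its p-values would then rest on fewer separate units, and sex could not be fully told apart from differences between such pairs. With replicate number as a block, 145 genes were called (107 shared with the 149), 1 within WT, 4 within KO, 0 for the interaction and 4012 under HDM. A block within each sex, added after seeing the data, gave 1090, 41, 93, 0 and 2936, and a crossed block gave 25 within KO. The block within each sex takes the spread between such pairs out of the spread against which the sexes are compared.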
